A study of Homo sapiens with 8 samples.

Results

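The retinoid receptors, the COUP-TF factors and the corepressor NRIP1 were followed in retinoic acid-treated neuroblastoma cells in which the chromatin reader ZMYND8 was raised or lowered. The 8 genes were RARA, RARB, RARG, RXRA, RXRG, NR2F1, NR2F2 and NRIP1, taken from the 60659 genes of the count table by their gene symbols. RNA-seq was carried out on SK-N-SH, an established human neuroblastoma line that holds cells of more than 1 shape and state. Every library came from cells kept for 24 h in 10 μM all-trans retinoic acid (ATRA), the acid form of vitamin A, and each of the 4 groups had 2 libraries from biological replicates. The overexpression experiment compared parental cells given doxycycline (Dox), the drug that switches on an inducible vector, with cells that expressed FLAG-tagged ZMYND8 and were given Dox (ZMYND8-OE). By the methods of the study the FLAG-ZMYND8 cells were a stable pool made with a Dox-inducible lentivirus and selected with G418. The labels of the parental cells name no vector, so the effects of vector and selection cannot be told apart from those of ZMYND8. The knockdown experiment compared KD control cells with ZMYND8 knockdown cells (ZMYND8-KD), for which the labels name neither the hairpin nor Dox. No group without ATRA was analysed here, so the values describe receptor levels under ATRA and not the response to it.

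ATRA binds the retinoic acid receptors (RARA, RARB, RARG), which sit on DNA as heterodimers with a retinoid X receptor (RXR). Without ligand the pair holds corepressors such as NCOR1, and with ligand it exchanges them for coactivators. COUP-TF factors are orphan nuclear receptors that are known as retinoic acid-responsive genes in neural cells and can occupy the same direct repeats as the RAR and RXR pair. NRIP1, also called RIP140, is a corepressor that is recruited to ligand-bound receptors and is itself known to be retinoic acid-responsive.

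The libraries held 38316523 to 56256979 counts on genes. ZMYND8 itself stood at 9.16 to 9.53 RPKM in parental cells and 538 to 545 in ZMYND8-OE, and at 7.8 to 7.99 in KD control and 4.11 to 4.13 in ZMYND8-KD. RPKM here is the read count divided by the summed exon length of the gene and by the library size, with library sizes scaled by TMM over the 8 libraries. The groups did not overlap in either experiment, with 58.3 times the parental level after overexpression and 52.2% of the control level after knockdown (adjusted p = 5.04e-12 and 2.2e-06, quasi-likelihood test of edgeR, adjusted by Benjamini-Hochberg over all genes tested). The 2 experiments therefore differed widely in the size of the change in ZMYND8.

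Of the 8 genes, 5 rose and 2 fell in ZMYND8-OE at an adjusted p below 0.05, a threshold that 60.8% of the 20835 genes tested passed, 31.7% upward and 29.1% downward. NRIP1 alone of the 8 was called, and it was called higher. A call also needs a mean normalized count above 20 and a log2 fold change of 1 or more in size, and 18.6% of all genes tested met it, 11.7% higher and 6.84% lower. The direction of RXRG, 1 of the 5 that rose, was fixed by the filter on low counts, since it had 0 counts in both parental libraries and entered the test through ZMYND8-OE alone. Without RXRG, 4 genes rose and 2 fell of 7, and their median log2 fold change was 0.21, against 0.031 over all genes. In ZMYND8-KD, 7 of the 8 genes had enough counts for the test and 2 rose, RARB and RARG, at a threshold that 24.3% of 19789 genes passed, 13.4% upward. None of the 7 was called by edgeR or by DESeq2, against 1.96% of all genes in edgeR (1.36% higher and 0.596% lower). Of the 7, 4 had an unadjusted p below 0.05 in edgeR. The share of all genes at that unadjusted p was not taken, here or for the gene lists below. The median log2 fold change of the 7 was 0.14, against -0.008 over all genes. The share of all genes past the threshold is high in the overexpression experiment, so passing it sets none of the 8 genes apart.

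**Figure D1:**
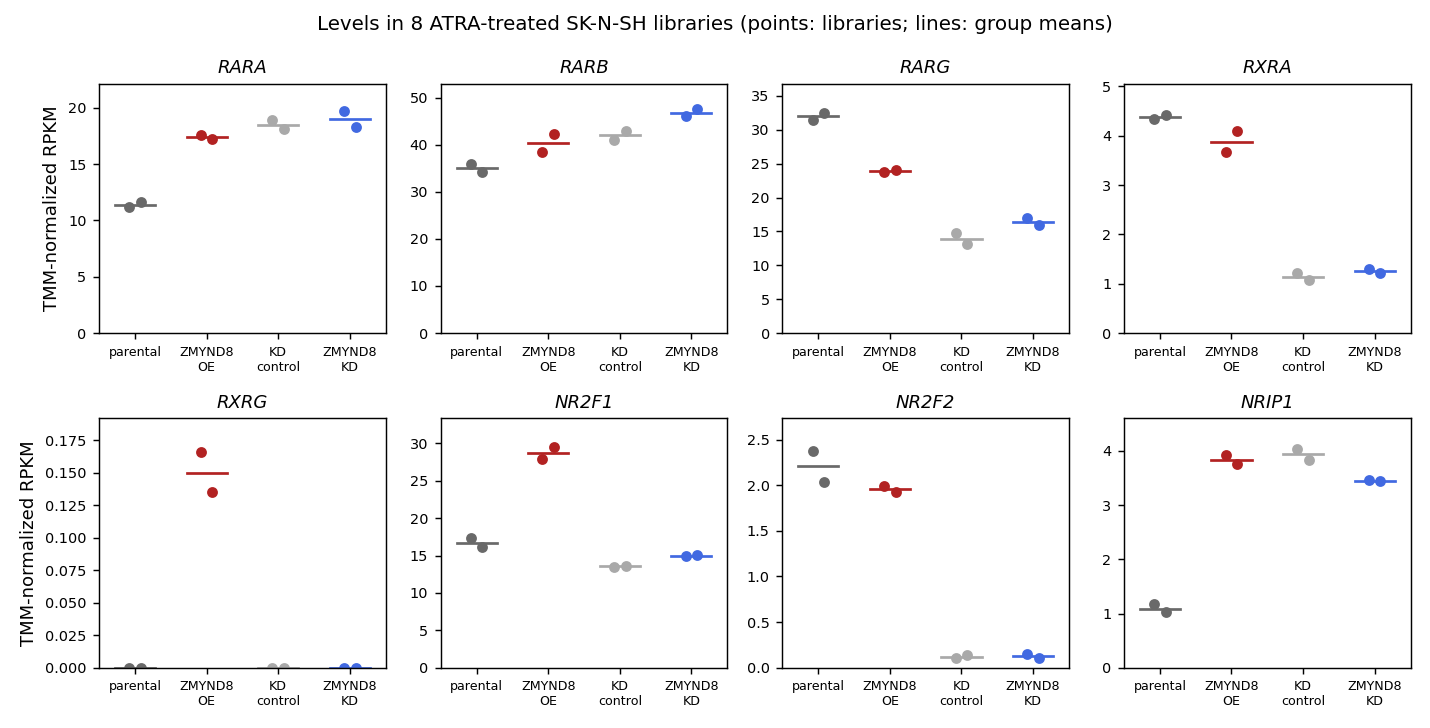
Level of each gene in TMM-normalized RPKM (vertical axis, linear from 0, a different scale in each panel) in the 4 groups, with 1 point per library and a line at the mean of the 2 libraries. NRIP1 sits at 1.02 to 1.17 RPKM in parental cells and at 3.44 to 4.03 in the other 6 libraries, and RXRG is above 0 in the ZMYND8-OE libraries alone.

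RARA encodes the broadly expressed retinoic acid receptor alpha (ENSG00000131759, GRCh38, chromosome 17, 40309180 to 40357643, plus strand). It stood at 11.2 and 11.6 RPKM in parental cells, 17.6 and 17.2 in ZMYND8-OE, 18.9 and 18.1 in KD control, and 19.7 and 18.3 in ZMYND8-KD. Both parental libraries were below all others, and the libraries of the knockdown experiment overlapped. RARA rose 1.53-fold in ZMYND8-OE, a log2 fold change of 0.61 with an SE of 0.0509 (95% interval 0.50 to 0.73, adjusted p = 2.02e-06, edgeR). In ZMYND8-KD the log2 fold change was 0.043, with an interval from -0.080 to 0.17 (adjusted p = 0.625, edgeR). In bulk RNA a change in the number of cells of a type and a change in RNA per cell cannot be told apart, here and for every gene below. Corrected for gene length and GC content, the overexpression value of RARA was 0.24 (adjusted p = 0.00211, edgeR). Of the exonic bases of RARA, 21.4% lie opposite exons of other genes, RARA-AS1 among them. The strand setting of the counting is not given in the sources used here. RARA-AS1 itself had a log2 fold change of 0.15 in ZMYND8-OE (adjusted p = 0.462, edgeR).

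RARB encodes retinoic acid receptor beta, known as a direct target of retinoic acid through an element in its own promoter (ENSG00000077092, GRCh38, chromosome 3, 25174332 to 25597932, plus strand). It is shown with its sequence because it is both a receptor and a target of the receptors. Direct repeats of the hexamers AGGTCA and AGTTCA and of their variants with G as first base, GGGTCA or GGTTCA, in any pairing, spaced by 1, 2 or 5 bases (DR1, DR2, DR5), were searched on both strands of the RefSeq promoters of GRCh38.p14, which run from 250 bases before to 50 bases after each start. All 8 genes were matched, with 18 promoters between them. A DR5 was found in 1 of the 18, a RARB promoter, on the plus strand at chr3:25428210-25428226, 53 to 37 bases before the start, written below with 6 bases on either side and with both hexamers in capitals.
RARB DR5: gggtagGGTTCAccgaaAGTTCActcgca
Across all 35116 promoters, 0.0883% held a DR5, 0.131% a DR1 and 0.0399% a DR2, and none of the 18 promoters held a DR1 or a DR2. A match of letters is a description of the promoter and says nothing of binding in these cells.

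RARB stood at 35.9 and 34.3 RPKM in parental cells, 38.5 and 42.2 in ZMYND8-OE, 41 and 43 in KD control, and 46 and 47.5 in ZMYND8-KD. Within each experiment the treated libraries were above their controls without overlap. RARB rose 1.16-fold in ZMYND8-OE (log2 0.21, SE 0.0562, 95% interval 0.086 to 0.34, adjusted p = 0.00771, edgeR). In ZMYND8-KD it was higher by 0.16 on the log2 scale (SE 0.051, interval 0.045 to 0.27, adjusted p = 0.0463, edgeR). The overexpression value was 0.18 with an adjusted p of 0.0607 without parental replicate 2 (edgeR). The knockdown value lost its threshold without any 1 of its 4 libraries, KD control replicates 1 and 2 and ZMYND8-KD replicates 1 and 2, at 0.12 to 0.19 with adjusted p-values of 0.0666 to 0.258 (edgeR). Its adjusted p was also 0.0687 with upper quartile normalization, 0.0933 with no filter on low counts and 0.0611 with all 8 libraries in 1 fit (edgeR).

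RARG encodes retinoic acid receptor gamma (ENSG00000172819, GRCh38, chromosome 12, 53210567 to 53232980, minus strand). It stood at 31.5 and 32.5 RPKM in parental cells, 23.8 and 24 in ZMYND8-OE, 14.7 and 13.2 in KD control, and 17 and 15.9 in ZMYND8-KD. The 4 groups did not overlap, and parental cells were highest. RARG fell 1.33-fold in ZMYND8-OE (log2 -0.41, SE 0.0479, 95% interval -0.52 to -0.30, adjusted p = 2.94e-05, edgeR). In ZMYND8-KD it was higher by 0.24 on the log2 scale (SE 0.0626, interval 0.10 to 0.38, adjusted p = 0.0177, edgeR). Corrected for gene length and GC content, the overexpression value was -0.69. The knockdown value was 0.17 with an adjusted p of 0.181 without KD control replicate 2, and 0.25 with an adjusted p of 0.0891 with no filter on low counts (edgeR).

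The make-up of the RAR transcripts therefore differed between groups while their sum stayed in a narrow range, from 74.2 to 83.4 RPKM over the 8 libraries. RARG took 40.8% ± 0.986 (SD, n = 2) of the summed RAR RPKM in parental cells and 29.3% ± 0.78 in ZMYND8-OE. The share of RARA was 14.6% ± 0.403 in parental cells and 21.3% ± 0.958 in ZMYND8-OE. RARB held the largest share in every library, at 43.7% to 50.6% in the overexpression experiment and 55% to 58.1% in the knockdown experiment. RARG took 18.7% ± 1.38 in KD control and 20% ± 0.767 in ZMYND8-KD, with overlapping libraries. These shares were not tested by themselves, and with 2 libraries against 2 no permutation test of a single value can reach 0.05.

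**Figure D2:**
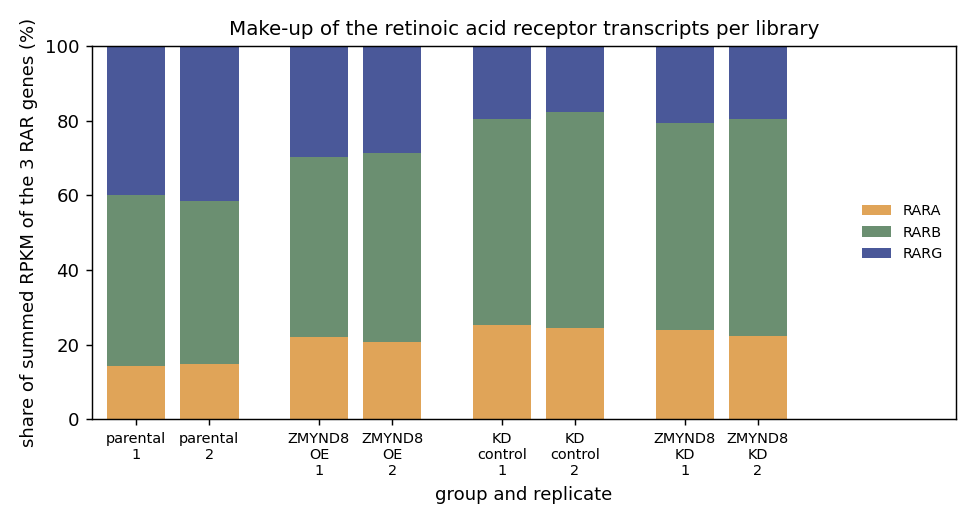
Share of each RAR gene in the summed RPKM of RARA, RARB and RARG (vertical axis, percent), with 1 bar per library of the 4 groups. The RARG segment is 40.1% and 41.5% in the parental libraries, 29.9% and 28.7% in ZMYND8-OE, and 17.7% to 20.5% in the 4 libraries of the knockdown experiment.

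RXRA encodes retinoid X receptor alpha, a shared partner of the RARs and several other receptors (ENSG00000186350, GRCh38, chromosome 9, 134317098 to 134440585, plus strand). It stood at 4.34 and 4.43 RPKM in parental cells, 3.67 and 4.1 in ZMYND8-OE, 1.21 and 1.07 in KD control, and 1.29 and 1.21 in ZMYND8-KD. The parental and ZMYND8-OE libraries did not overlap, and those of the knockdown experiment met at 1.21. RXRA was lower in ZMYND8-OE by a log2 fold change of -0.17 (SE 0.0614, 95% interval -0.30 to -0.031, adjusted p = 0.0359, edgeR). Its adjusted p was 0.0548 without parental replicate 1, 0.12 without parental replicate 2 and 0.296 without ZMYND8-OE replicate 1, 0.061 in DESeq2, and 0.239 with upper quartile normalization in edgeR. Corrected for gene length and GC content, the value was -0.53 (adjusted p = 2.66e-05, edgeR). In ZMYND8-KD the log2 fold change was 0.14 with an interval from -0.069 to 0.34 (adjusted p = 0.328, edgeR).

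RXRG encodes retinoid X receptor gamma, the RXR with the narrowest tissue range (ENSG00000143171, GRCh38, chromosome 1, 165400922 to 165445355, minus strand). It had 24 and 16 counts in the ZMYND8-OE libraries and 0 counts in each of the other 6 libraries. Against a floor of 3 counts per library, RXRG was at least 6.2-fold higher in ZMYND8-OE than in parental cells. The level behind this bound was low, 0.166 and 0.135 RPKM, and the gene entered the test through ZMYND8-OE alone (adjusted p = 0.000238, edgeR). Its mean normalized count of 9.7 was under the minimum for a call, and it was not tested in the knockdown experiment. RXRB, the remaining RXR, was not interpreted. It had 0 to 10 counts per library, and 100% of the 31-base stretches of its exons also occur on alternate contigs of the genome. Reads that match several places may go uncounted.

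NR2F1 encodes COUP-TFI, a regulator of neural development (ENSG00000175745, GRCh38, chromosome 5, 93583222 to 93594611, plus strand). It stood at 17.3 and 16.2 RPKM in parental cells, 27.9 and 29.5 in ZMYND8-OE, 13.5 and 13.6 in KD control, and 14.9 and 15.1 in ZMYND8-KD. The 4 groups did not overlap, and ZMYND8-OE was highest. NR2F1 rose 1.73-fold in ZMYND8-OE (log2 0.79, SE 0.0537, 95% interval 0.67 to 0.91, adjusted p = 4.27e-07, edgeR), short of the fold that a call requires. In ZMYND8-KD the log2 fold change was 0.15 with an interval from 0.035 to 0.26 (adjusted p = 0.0579, edgeR). Its antisense neighbour NR2F1-AS1, which overlaps 3.66% of the exonic bases of NR2F1, rose by 0.20 on the log2 scale in ZMYND8-OE (adjusted p = 0.0328, edgeR) and had a value of 0.10 in ZMYND8-KD (adjusted p = 0.334, edgeR).

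NR2F2 encodes COUP-TFII, known from mesenchyme and blood vessel development (ENSG00000185551, GRCh38, chromosome 15, 96325938 to 96340263, plus strand). It had 653 and 683 counts in parental cells, 693 and 549 in ZMYND8-OE, 36 and 49 in KD control, and 53 and 37 in ZMYND8-KD. Per length these were 2.37 and 2.04 RPKM in parental cells, 1.99 and 1.93 in ZMYND8-OE, and 0.106 to 0.156 in the knockdown experiment. NR2F2 thus differed between the experiments and little within them. The log2 fold change was -0.16 in ZMYND8-OE (95% interval -0.37 to 0.053, adjusted p = 0.173, edgeR). In ZMYND8-KD it was 0.13, and the interval from -0.48 to 0.74 shows how little these counts can resolve (adjusted p = 0.774, edgeR).

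The third COUP-TF gene is NR2F6. It took 71.8% ± 1.69 (SD, n = 2) of the summed COUP-TF RPKM in parental cells and 64.2% ± 1.34 in ZMYND8-OE, and NR2F1 took 24.9% ± 1.32 and 33.5% ± 1.39. In KD control and ZMYND8-KD, NR2F1 held 49% ± 1.49 and 49.5% ± 1.33. The share of NR2F2 was 3.29% in parental cells and 0.438% in KD control. Summed over the family, RPKM was 66.8 and 67.5 in parental cells, 85.8 and 85.5 in ZMYND8-OE, and 27.3 to 30.7 in the knockdown experiment.

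NRIP1 encodes the nuclear receptor interacting protein RIP140 (ENSG00000180530, GRCh38, chromosome 21, 14961235 to 15065936, minus strand). It stood at 1.17 and 1.02 RPKM in parental cells, 3.92 and 3.75 in ZMYND8-OE, 4.03 and 3.84 in KD control, and 3.46 and 3.44 in ZMYND8-KD. The parental libraries were far below all others, and the ZMYND8-OE libraries overlapped with those of KD control. NRIP1 rose 3.54-fold in ZMYND8-OE (log2 1.82, SE 0.0845, 95% interval 1.63 to 2.01, adjusted p = 2.08e-08, edgeR). The call held in every alternative run, with log2 fold changes from 1.72 to 2.05. In ZMYND8-KD both libraries were below both KD controls, with a log2 fold change of -0.19 (interval -0.32 to -0.048, adjusted p = 0.0529, edgeR). Over the 11 alternatives this knockdown value ran from -0.22 to -0.16, with adjusted p-values from 0.0191 to 0.234 (edgeR and DESeq2). Exons of NRIP1 are opposite another gene over 6.61% of their bases.

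The 2 effects were then compared gene by gene, as the overexpression effect minus the knockdown effect in 1 fit of all 8 libraries, where 49% of 22619 genes passed an adjusted p below 0.05, 24.6% with a positive and 24.4% with a negative difference. Of the 8 genes, 3 had a positive and 2 a negative difference past the threshold. NRIP1 had the largest difference of the 7 genes estimated, 2.00 on the log2 scale with an SE of 0.104 (adjusted p = 6.38e-10, edgeR). NR2F1 followed with 0.63 (interval 0.48 to 0.79, adjusted p = 4.42e-06, edgeR) and RARA with 0.56 (interval 0.40 to 0.73, adjusted p = 1.8e-05, edgeR). The effects on these genes were more positive under overexpression.

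RARG had a difference of -0.66 (interval -0.83 to -0.48, adjusted p = 8.86e-06, edgeR), and it was the gene that passed the test in opposite directions in the 2 experiments, though in ZMYND8-KD neither without KD control replicate 2 (0.17) nor with no filter on low counts (0.25). RXRA had a difference of -0.31 (interval -0.54 to -0.080, adjusted p = 0.0268, edgeR). That of RXRA was -0.23 to -0.29 and past 0.05 no longer without any 1 of KD control replicate 2, ZMYND8-KD replicate 1, parental replicate 2 or ZMYND8-OE replicate 1 (adjusted p-values of 0.083 to 0.124, edgeR). With upper quartile normalization it was -0.24 (adjusted p = 0.0835, edgeR). Corrected for gene length and GC content, the difference of RARA was 0.14 (adjusted p = 0.141, edgeR). For RARB the difference was 0.047 with an interval from -0.12 to 0.22 (adjusted p = 0.666, edgeR), and for NR2F2 it was -0.30 with an interval from -0.86 to 0.25 (adjusted p = 0.367, edgeR). RXRG could not be estimated, since it had no counts in 3 of the 4 groups.

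**Figure D3:**
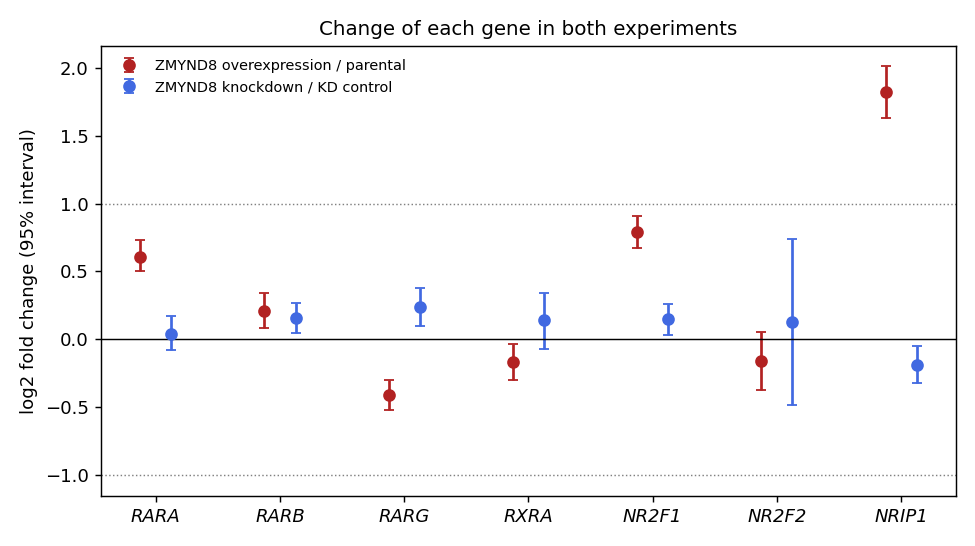
Log2 fold change of each gene (vertical axis) in ZMYND8-OE against parental cells and in ZMYND8-KD against KD control, with bars for the 95% interval of edgeR and dotted lines at the fold that a call requires. NRIP1 is past the dotted line at 1.82 under overexpression, no knockdown value reaches a dotted line, and RXRG is not drawn because it had 0 counts in parental cells.

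For each of the 7 genes with counts in all groups, the control groups of the 2 experiments lay further apart than ZMYND8-KD and KD control did. These values are a description with no test, since experiment, vector, Dox and batch cannot be told apart between them. NR2F2 was 18.2-fold higher in parental cells than in KD control, RXRA 3.85-fold and RARG 2.3-fold. NRIP1 was 3.6-fold higher in KD control than in parental cells, and RARA 1.62-fold. The order of groups was ZMYND8-KD, KD control, ZMYND8-OE and parental for RARA and RARB, and parental, ZMYND8-OE, ZMYND8-KD and KD control for RARG, RXRA and NR2F2. Neighbours in these orders overlapped between ZMYND8-KD and KD control for RARA, RXRA and NR2F2, and between KD control and ZMYND8-OE for RARB and NRIP1. For NR2F1 the order was ZMYND8-OE, parental, ZMYND8-KD and KD control, and for NRIP1 it was KD control, ZMYND8-OE, ZMYND8-KD and parental.

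Among 47 nuclear receptor genes ranked by mean RPKM, with RXRB left out, RARB was first in KD control and ZMYND8-KD and second in parental cells and ZMYND8-OE, behind NR2F6. RARA ranked 10 in parental cells, 7 in ZMYND8-OE and 3 in both groups of the knockdown experiment. NR2F1 ranked 5 in parental cells and 3 in ZMYND8-OE. RXRA ranked 16 in both groups of the overexpression experiment and 21 and 23 in KD control and ZMYND8-KD. These ranks are of levels per length and carry no test.

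Of 17 corepressors, all tested in ZMYND8-OE, 6 rose and 5 fell at an adjusted p below 0.05 (edgeR). Of the 17, 2 were called higher, and the median log2 fold change was 0.10. The shares over all genes tested were 31.7% rising, 29.1% falling and 11.7% called higher. The 6 include PRAME, whose value is uncertain because 100% of the 31-base stretches of its exons also occur on alternate contigs, as for RXRB. The 2 called were BCL11B and ZFPM2, named after their values were seen, with 1 and 3 counts of BCL11B in parental cells against 89 and 88 in ZMYND8-OE, and 21 and 10 counts of ZFPM2 against 75 and 69. BCL11B binds COUP-TF factors, and ZFPM2 is a GATA cofactor that also binds NR2F2. In ZMYND8-KD, LCOR was the 1 corepressor of 15 tested that was called, against 1.96% of all genes tested. LCOR, a ligand-dependent corepressor that like NRIP1 binds active receptors, stood at 8.67 ± 0.337 RPKM (SD, n = 2) in KD control and 18.6 ± 0.675 in ZMYND8-KD, a log2 fold change of 1.10 (adjusted p = 9.49e-07, edgeR). In ZMYND8-OE its log2 fold change was -0.33 (adjusted p = 0.000694, edgeR). Of 9 coactivators, none was called in either experiment by edgeR or DESeq2. At an unadjusted p below 0.05 there were 5 in ZMYND8-OE and 6 in ZMYND8-KD (edgeR). At an adjusted p below 0.05, 3 rose and 2 fell in ZMYND8-OE, and 2 rose and 2 fell in ZMYND8-KD (edgeR). That threshold was passed by 60.8% of all genes tested in ZMYND8-OE and by 24.3% in ZMYND8-KD. The 2 that fell in ZMYND8-KD were NCOA3 and KAT2B, named after their values were seen. NCOA3 was at -0.97 on the log2 scale (adjusted p = 1.47e-06, edgeR), just short of a call. KAT2B was at -0.79 (adjusted p = 0.000355, edgeR).

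Of 41 other nuclear receptors, 31 were tested in ZMYND8-OE, where 7 were called higher and 2 lower. Among all genes tested there, 11.7% were called higher and 6.84% lower. RORB, an orphan receptor of the nervous system, rose from 0.152 ± 0.0412 RPKM to 4.48 ± 0.0504, a log2 fold change of 4.91 (adjusted p = 2.46e-10, edgeR). ESRRG, an estrogen-related orphan receptor, rose by a log2 fold change of 1.82 (adjusted p = 3.36e-09, edgeR). Its mean was 1.63 RPKM in parental cells and 5.74 in ZMYND8-OE, but 8.76 in KD control and 8.16 in ZMYND8-KD. The ZMYND8-OE level of ESRRG was thus below that of KD control. The 2 receptors called lower were NR3C1, the glucocorticoid receptor, at -1.16 and NR4A3, an immediate early orphan receptor, at -1.19 (adjusted p = 3.53e-08 and 2.08e-06, edgeR). In ZMYND8-KD, 26 were tested and 1 was called, against 1.96% of all genes tested. It was VDR, the vitamin D receptor, which rose from 1.23 ± 0.0356 to 2.64 ± 0.0817 RPKM (log2 1.11, adjusted p = 1.94e-05, edgeR).

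Of 17 genes known as retinoic acid targets, 16 were tested in ZMYND8-OE, where 5 were called higher and 3 lower. Among all genes tested, 11.7% were called higher and 6.84% lower. The median log2 fold change of the targets was 0.28. CYP26A1, which degrades retinoic acid, rose from 13.1 ± 0.257 RPKM in parental cells to 390 ± 17.6 in ZMYND8-OE (log2 4.90, adjusted p = 1.72e-11, edgeR). In the knockdown experiment CYP26A1 stood at 10.7 ± 0.745 RPKM in KD control and 10.9 ± 0.27 in ZMYND8-KD (log2 0.030, interval -0.12 to 0.18, edgeR). RET, a receptor tyrosine kinase of sympathetic neurons, rose by a log2 fold change of 4.12 (adjusted p = 5.95e-11, edgeR). Its mean was 18.4 RPKM in parental cells, 317 in ZMYND8-OE, 160 in KD control and 111 in ZMYND8-KD. TGM2, a transglutaminase known for its induction by retinoic acid, fell from 681 ± 25.3 to 111 ± 0.245 RPKM (log2 -2.61, adjusted p = 8.15e-11, edgeR). The targets thus went both ways. In ZMYND8-KD none of 14 tested was called by edgeR or DESeq2, with 9 at an unadjusted p below 0.05 in edgeR. At an adjusted p below 0.05, 2 were higher and 5 lower (edgeR). Among all genes tested in ZMYND8-KD, 13.4% were higher and 10.8% lower at that threshold, and 1.96% were called.

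Among 12 genes of retinoid metabolism and transport, 8 were tested in each experiment. For comparison, 18.6% of all genes tested were called in ZMYND8-OE and 1.96% in ZMYND8-KD. RDH10, which makes retinaldehyde from retinol, was called lower in both, at 30.5 ± 0.192 RPKM in parental cells and 7.71 ± 1.9 in ZMYND8-OE (log2 -1.97, adjusted p = 1.94e-07, edgeR), and at 28.6 ± 1.06 in KD control and 12.3 ± 0.0424 in ZMYND8-KD (log2 -1.22, adjusted p = 3.62e-07, edgeR). CRABP1, a cytosolic retinoic acid binding protein, rose by a log2 fold change of 3.50 in ZMYND8-OE (adjusted p = 9.53e-08, edgeR). A further gene was called higher in ZMYND8-OE, LRAT, which esterifies retinol, with 4 and 3 counts in parental cells and 145 and 106 in ZMYND8-OE, named after its values were seen.

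**Figure D4:**
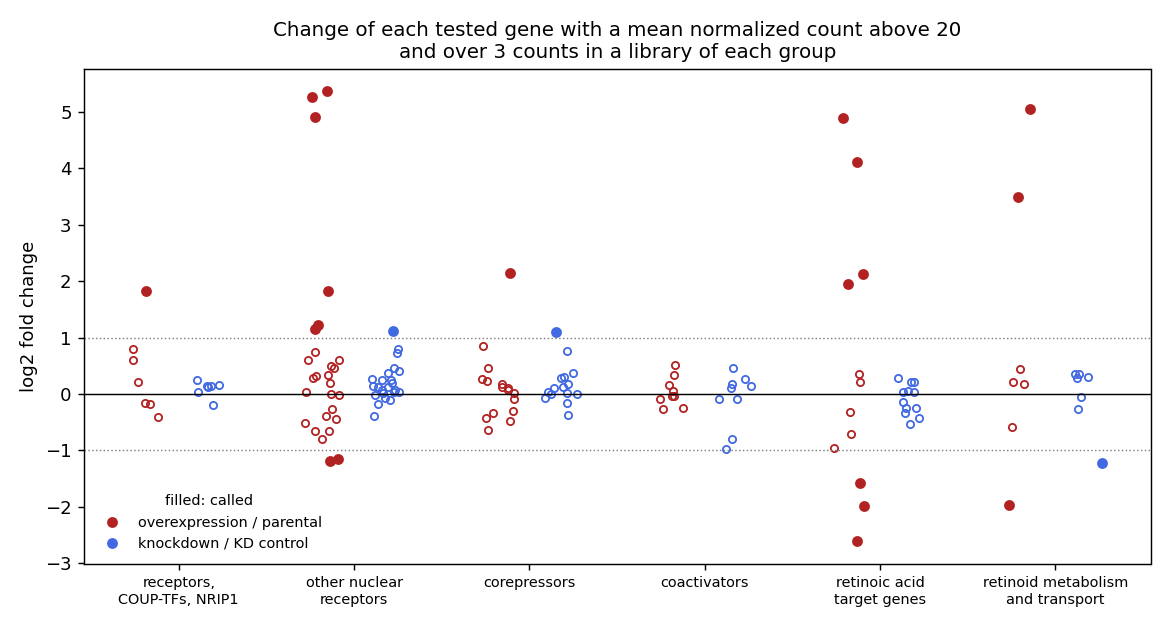
Log2 fold change (vertical axis) of each tested gene with a mean normalized count above 20 in the 8 genes and in the 5 lists named on the horizontal axis, red for ZMYND8-OE against parental cells and blue for ZMYND8-KD against KD control, with filled points for called genes and dotted lines at the fold that a call requires. NRIP1 is the filled point of the 8 genes, at 1.82, the retinoic acid targets spread from -2.61 to 4.90, and 3 genes with 3 counts or fewer in both parental libraries are not drawn.

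Markers of the 2 states of neuroblastoma cells moved in the same comparison. Of 10 markers of the adrenergic, neuron-like state, 9 were tested in ZMYND8-OE, 5 were called higher and 1 lower, and their summed RPKM was 173 to 176 in parental cells and 375 to 392 in ZMYND8-OE. DBH, the last enzyme of noradrenaline synthesis, rose by a log2 fold change of 2.25 and HAND2, a transcription factor of sympathetic neurons, by 1.82. The mean of DBH was 10.9 RPKM in ZMYND8-OE and 14.4 in KD control, and that of HAND2 was 107 and 66.2. The 1 called lower was TBX2, at -1.24 (adjusted p = 2.16e-08, edgeR), named after its values were seen. Of 10 markers of the mesenchymal state, 7 were called lower. The sum of the 10 was 1480 to 1540 RPKM in parental cells and 566 to 585 in ZMYND8-OE. Among all genes tested in ZMYND8-OE, 11.7% were called higher and 6.84% lower. PRRX1, a mesenchymal transcription factor, fell by 2.39 on the log2 scale and CD44, a surface adhesion receptor, by 2.55. No marker of either list was called in ZMYND8-KD by edgeR or DESeq2, with 5 of 8 and 10 of 10 at an unadjusted p below 0.05 in edgeR. There the adrenergic sum was 260 to 271 RPKM in KD control and 200 to 223 in ZMYND8-KD, with TH at 0 counts in both groups. The mesenchymal sum was 589 to 618 RPKM in KD control and 798 to 840 in ZMYND8-KD. Not every mesenchymal marker followed that sum, since 7 were higher and 2 lower in ZMYND8-KD at an adjusted p below 0.05 (edgeR). Among all genes tested, 13.4% were higher and 10.8% lower at that threshold, and 1.96% were called. The 2 lower were PRRX1, at -0.98 on the log2 scale (adjusted p = 8.13e-07, edgeR), and SNAI2, at -0.41 (adjusted p = 0.0119, edgeR). SNAI2 was named after its values were seen.

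The parental cells therefore held the highest mesenchymal and lowest adrenergic sums of the 4 groups, and they also held the lowest RARA and NRIP1 and the highest RARG, RXRA and NR2F2. The part of these marker differences in the receptor values was not tested. Of 8 markers of blood, endothelium, epithelium, glia and liver, 3 of 5 tested were called lower in ZMYND8-OE, PECAM1, KRT18 and MBP. In ZMYND8-KD, PECAM1 of 4 tested was called lower. These genes were named after their values were seen. Among all genes tested, 6.84% were called lower in ZMYND8-OE and 0.596% in ZMYND8-KD. PTPRC was at 0 counts in ZMYND8-OE, where reads may have gone uncounted because 59.8% of its 31-base stretches also occur on alternate contigs, and CD3E and ALB were at 0 counts in KD control and ZMYND8-KD. The labels describe the line as epithelial cells of neuroblastoma, and across the libraries the epithelial markers stood at 47.8 to 132 RPKM for KRT18 and 0.213 to 0.416 for EPCAM. Of the neuroblastoma markers, HAND2 was detected in every library, while TH had 0 to 5 counts. The sum of the 8 markers of blood, endothelium, epithelium, glia and liver was nearly all KRT18. It was 127 to 128 RPKM in parental cells, 48.4 to 65.4 in ZMYND8-OE, 111 to 131 in KD control and 120 to 134 in ZMYND8-KD.

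NRIP1 was the one gene of the 8 for which the genes of most similar pattern were sought, as the one called. Over the 8 libraries, and among 13543 genes with a mean normalized count above 100, SULT4A1 and TES lay closest to it, at root mean square distances of 0.11 and 0.112 in log2 normalized counts centred on each gene's mean. SULT4A1 encodes a sulfotransferase expressed in brain, and TES encodes a protein of focal adhesions. This is a likeness of levels over libraries that share groups, and no test was made of it.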

How the data were processed

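The authors deposited raw counts of reads per gene, with the summed exon length of each gene, for 8 libraries of rRNA-depleted total RNA. By the study's methods, reads were trimmed with Trim_Galore, aligned by Hisat2 to GRCh38, and assigned to genes of GENCODE release 28 by featureCounts. Some identifiers may be newer than that release, which was not compared here, so the gene models behind the counts are uncertain. Lengths are those of the table. Of 60662 lines, 3 belonged to 1 split gene and were left out. Gene symbols came from GENCODE release 44, and promoters from RefSeq (GRCh38.p14). GC content and overlaps were taken from the exon coordinates in the count table, with GC read from the GRCh38 sequence.

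Samples were grouped by the treatment in their labels. After filterByExpr and TMM normalization, the two-sided quasi-likelihood test of edgeR 4.0.16 (limma 3.58.1, R 4.3.3) was run for overexpression and knockdown each against its own control in 4 libraries, and their difference in all 8. P-values were adjusted by Benjamini-Hochberg over all genes tested. Calls needed an adjusted p below 0.05, a mean normalized count above 20 and a log2 fold change of 1 or more in size. Total counts ranged from 38316523 to 56256979, and the biological coefficient of variation was 0.0565 and 0.0613. Replicates differed by more than counting noise (chi-square per degree of freedom 6.05 to 8.86). The scripts were tested on simulated data.

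The alternatives run were DESeq2 1.42.0, RLE or upper quartile normalization, no filter on low counts, no threshold on fold change, the replicate number as a block, all 8 libraries in 1 fit, loess correction for gene length and GC content (span 0.5), and leaving out each library, where the lone library left in a group is assumed to vary like the other group. The 8 genes, the gene lists and the tests were chosen with earlier results of these data known. Beside the 8 genes, called list genes with a mean normalized count above 100 were named, at most the 4 with the largest change per list, and the 2 genes nearest in pattern to each called gene of the 8. List genes named after their values were seen are marked as such, and some list genes that the rule names are not reported here.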

Additional observations from a re-analysis of the deposited data

How the results depend on the processing

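NRIP1 was the 1 gene of the 8 called in ZMYND8-OE in every alternative that kept the threshold on fold change, and none was called in ZMYND8-KD. With no threshold on fold change, 6 of the 8 were called in ZMYND8-OE and 2 in ZMYND8-KD, by the construction of that alternative. The share of all genes under that rule was not taken. At an adjusted p below 0.05 alone it was 60.8% in ZMYND8-OE and 24.3% in ZMYND8-KD (edgeR), so these counts set none of the 8 apart. The difference between the effects passed the threshold for 4 or 5 genes in every alternative, and for 4 or 5 when a library was left out. Directions turned for values near 0. In ZMYND8-KD, NR2F2 was at -0.044 without KD control replicate 1 and at -0.15 without ZMYND8-KD replicate 1, and RARA was at -0.017 without ZMYND8-KD replicate 1, the low ends of ranges that reached 0.37 and 0.10 without ZMYND8-KD replicate 2. The difference between the effects for RARB was -0.014 with RLE normalization, -0.014 in DESeq2, -0.035 with no filter on low counts and -0.021 without ZMYND8-OE replicate 2. The cause was not tested. The gene length and GC correction brought NR2F2 in ZMYND8-OE to -0.26 (adjusted p = 0.0366, edgeR), and in ZMYND8-KD brought NR2F1 to an adjusted p of 0.041 and NRIP1 to 0.0315 (edgeR). The median over all genes in ZMYND8-OE was 0.031 with TMM, 0.11 with upper quartile normalization and 0.14 with no filter.

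In the paired fit with the replicate number as a block (replicate block), 1, 0 and 5 of the 8 genes passed in ZMYND8-OE, ZMYND8-KD and the difference, with 3874 and 393 genes called among all, against 3865 and 388 without it. NR2F1 and NRIP1 in ZMYND8-KD had adjusted p-values of 0.0136 and 0.0191 under the block (edgeR). The labels give no more than a number, and deviations of same-numbered libraries correlated at 0.052 and 0.20 over 2 pairs each. DESeq2 called 269 genes in ZMYND8-KD in place of 388, and the cause was not tested. Depth limits NR2F2 in the knockdown experiment, at 36 to 53 counts per library, and RXRG everywhere.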
